A study of Mus musculus with 7 samples.

Results

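The deacetylase HDAC1 takes acetyl groups off lysines of histones and other proteins. Here its peaks were examined at the genes of the enzymes that work in the opposite direction, the histone acetyltransferases. The 9 genes were Ep300, Crebbp, Kat2a, Kat2b, Kat5, Kat6a, Kat6b, Kat7 and Kat8, and a peak was taken when it overlapped a gene body with 5 kb added on each side (GENCODE M21, mm10). Of the 15347 HDAC1 peaks in all, 12 met this rule. They came from ChIP-seq on forelimb and hindlimb buds pooled from wild-type Swiss Webster embryos at E11.5, with 40 to 44 somites, in 4 samples precipitated with the HDAC1 antibody Abcam ab7028 and 3 input samples without antibody. The labels give 3 litters per sample and name no allele or treatment. Whole limb buds hold mesenchyme, ectoderm and other cells, so a peak in the pooled tissue cannot be assigned to a cell type. The authors deposited 1 list for all samples, which gives the coordinates of each peak in ranked order and no read number, height or false discovery rate. Peaks are therefore described by their position in that list, with 1 the first, and no value below has a replicate error or a test. All 10 limb bud marker genes examined (Prrx1, Prrx2, Tbx4, Tbx5, Pitx1, Hoxa13, Hoxd13, Msx1, Twist1 and Lmx1b) had a peak by the same rule. So did 2 of 10 marker genes of liver, nervous system, pancreas and blood, and 50.4% of all coding genes. The markers were chosen with earlier results of these data known, so this is not an independent check of the tissue. The sets also differ in CpG content, with 6 of 10 and 0 of 10 promoters CpG-rich by the rule given below.

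Acetylation by these enzymes and deacetylation by HDACs together set the level of marks such as H3K27ac, which lies at active enhancers and promoters. Ep300 and Crebbp encode p300 and CBP, the paralogous coactivators that place H3K27ac, and loss of a copy of the human CREBBP or EP300 gene is a known cause of a syndrome with broad thumbs and toes. Kat2a and Kat2b encode GCN5 and PCAF, the catalytic subunits of the SAGA and ATAC complexes, which act mainly on H3K9. The other genes encode the MYST family, in which Kat5 (TIP60) acts on H4 and H2A within the NuA4 complex and Kat8 (MOF) acts on H4K16. Kat6a and Kat6b (MOZ and MORF) and Kat7 (HBO1) act with BRPF scaffold proteins.

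HDAC1 peaks lay at the promoters of 8 of the 9 genes, and Kat5 had none. A promoter was counted from 2 kb before to 1 kb after a coding transcript start. Over all 21851 coding genes, 50.4% had a peak in the same window around the gene and 44.1% had a peak at the promoter. A peak covered a coding start itself in 7 of the 9 genes, against 32.8% of all coding genes. Of the 12 peaks, 11 lay at the promoter of the acetyltransferase gene. The other lay 3229 bp past the 3′ end of Crebbp and covered the start of the next gene, Trap1, a mitochondrial chaperone gene, so Crebbp was the only member with a peak away from its own promoter, against 17.5% of all coding genes. No HDAC1 peak lay inside any of these genes beyond the promoter window. For the 5 members of 50 kb or more (Ep300, Crebbp, Kat2b, Kat6a and Kat6b) that is 0 of 5, where 19.8% of the 4985 coding genes of that length had such a peak, so with 5 genes a count of 0 does not set them apart.

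The DNA just before the start is shown for 6 of the genes because the promoters differ widely in base composition. The sequences are from mm10, read 5′ to 3′ along the gene, and end at the base before the first coding start, or, for Kat2b, before the first annotated exon. The Kat2b stretch therefore stops short of its coding start, and a CCAAT match of Kat2b 70 bp before that start is not shown. Capitals mark matches on either strand to the 9 motifs searched. These were the GC box with the letters GGGCGG, the CCAAT box, the ETS motif spelled CCGGAA, the core of the CRE site spelled TGACGT, the E box spelled CACGTG, the TATA box spelled TATAAA, the YY1 motif spelled AAGATGGC, the E2F motif spelled TTCGCGC and the NRF1 motif. Neighbouring matches can join into a longer run. Kat6b and Crebbp are GC-rich promoters of genes with peaks early in the list. Kat2b has the earliest peak and AT-rich DNA before its start. Kat2a and Kat8 have late peaks, and Kat5 has none.
Kat6b: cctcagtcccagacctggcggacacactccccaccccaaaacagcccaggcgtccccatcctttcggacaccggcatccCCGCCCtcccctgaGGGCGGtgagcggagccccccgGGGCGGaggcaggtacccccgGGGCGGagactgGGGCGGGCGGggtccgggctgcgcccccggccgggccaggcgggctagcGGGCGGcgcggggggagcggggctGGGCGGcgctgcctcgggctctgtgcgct
Crebbp: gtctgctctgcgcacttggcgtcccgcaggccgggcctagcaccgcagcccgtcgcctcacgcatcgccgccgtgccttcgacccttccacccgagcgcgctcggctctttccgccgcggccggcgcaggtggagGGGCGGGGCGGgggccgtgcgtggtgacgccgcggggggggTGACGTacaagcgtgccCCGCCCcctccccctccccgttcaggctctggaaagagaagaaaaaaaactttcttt
Kat2b: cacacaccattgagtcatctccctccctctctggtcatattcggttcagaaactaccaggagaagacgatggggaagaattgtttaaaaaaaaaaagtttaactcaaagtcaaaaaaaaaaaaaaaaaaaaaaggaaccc
Kat2a: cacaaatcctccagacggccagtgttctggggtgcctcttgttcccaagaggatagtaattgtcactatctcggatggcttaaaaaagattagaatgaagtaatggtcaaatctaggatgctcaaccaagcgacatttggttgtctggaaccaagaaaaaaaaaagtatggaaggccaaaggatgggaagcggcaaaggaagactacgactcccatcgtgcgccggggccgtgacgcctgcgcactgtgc
Kat8: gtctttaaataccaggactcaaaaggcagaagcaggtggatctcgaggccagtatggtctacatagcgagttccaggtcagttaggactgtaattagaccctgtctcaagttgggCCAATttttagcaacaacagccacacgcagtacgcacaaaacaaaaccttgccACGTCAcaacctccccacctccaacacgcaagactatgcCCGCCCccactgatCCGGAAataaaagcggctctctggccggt
Kat5: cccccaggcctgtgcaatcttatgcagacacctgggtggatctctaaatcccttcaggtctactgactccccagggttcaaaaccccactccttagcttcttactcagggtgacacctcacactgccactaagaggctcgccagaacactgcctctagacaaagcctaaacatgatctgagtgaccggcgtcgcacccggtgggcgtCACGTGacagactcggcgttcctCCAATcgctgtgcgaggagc
On mm10 the printed stretches are chr14:21499520-21499769 (plus strand) for Kat6b, chr16:4213998-4214247 (minus) for Crebbp, chr17:53566721-53566860 (plus) for Kat2b, chr11:100712466-100712715 (minus) for Kat2a, chr7:127912266-127912515 (plus) for Kat8 and chr19:5610238-5610487 (minus) for Kat5. HDAC1 peaks covered all of the stretches at Kat6b and Crebbp, 111 of 140 bases at Kat2b, 184 of 250 at Kat2a, 116 of 250 at Kat8 and none at Kat5.

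Among the p300 and CBP genes, the Ep300 peak stood at position 1702 and was 1450 bp long (chromosome 15, 81585450 to 81586899). It began 53 bp after the GENCODE coding start and lay wholly inside the transcribed gene, with 1179 bp in untranslated exon sequence, 94 bp in coding sequence and 177 bp in intron. It covered the RefSeq start of Ep300, at 81586214, so whether the start was covered depended on the annotation. It also contained the annotated miRNA gene Gm23880. The Crebbp peak stood later, at position 3472, but was longer, at 1700 bp (chromosome 16, 4212700 to 4214399). It covered both coding starts, reaching 402 bp upstream and 1297 bp into the gene. Of all 10757 coding promoter peaks, 657 were longer than the Crebbp peak and 988 were longer than that of Ep300.

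The GCN5 and PCAF genes differed most within a paralogous pair. The Kat2b peak had the earliest position of the set, 466, and the greatest length, 1750 bp (chromosome 17, 53566750 to 53568499). Ordered by their first-placed promoter peak, Kat2b was number 468 of the 9630 coding genes with one. The peak reached 221 bp upstream of the start and 1528 bp into the gene, where 921 bp was intron, 359 bp untranslated exon and 249 bp coding sequence. The Kat2a peak was 600 bp long at position 8280 (chromosome 11, 100712050 to 100712649), which made Kat2a number 6914 in the same order. It ran from 184 bp before to 415 bp after the start and also touched the promoter window of the small heat shock protein gene Hspb9. The next peak beyond the 3′ end of Kat2b was 1694480 bp away, and on the other side the nearest was 86912 bp away, at the promoter of Rab5a (position 2699).

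In the MYST family the MOZ and MORF genes had early peaks and the others late ones or none. The Kat6a peak was 1450 bp long at position 1724 (chromosome 8, 22859000 to 22860449), covered both coding starts and was 535 bp upstream sequence, 817 bp intron and 98 bp untranslated exon, with no coding base. Kat6b had 3 peaks in a row on chromosome 14. The middle peak, from 21499400 to 21500349, covered the first coding starts with 950 bp at position 2327. The peak before it, of 350 bp at position 12054, lay entirely upstream of the first coding start. It was still inside the annotated gene, which begins at 21481434. The peak after the middle one, of 550 bp at position 15185, covered a further start at 21500853. The 3 peaks were separated by 100 and 250 bp, and read as 1 region they would span 2200 bp. A last coding start of Kat6b, 15602 bp from the nearest of these peaks, had none.

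Kat7 had a pair of short peaks on chromosome 11, of 350 bp at position 12855 (95310100 to 95310449) and of 250 bp at position 12916 (95309750 to 95309999), with 100 bp between them. The 350 bp peak covered the coding starts at 95310246 and 95310201 and the start of the antisense gene Gm11520, and the 250 bp peak lay wholly in intron. Kat8 had the shortest and latest first-placed peak of the 8 genes, 300 bp at position 13839 (chromosome 7, 127912400 to 127912699), which covered the start with 116 bp before it and 168 bp of coding sequence. Kat6b and Kat7 were the only members with more than 1 promoter peak, that is 2 of 9 genes, against 9.41% of all coding genes.

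At Kat5 (chromosome 19, 5603014 to 5610237) no peak lay within 5 kb of the gene. The nearest peaks were 26763 bp away, a 900 bp peak at position 1993 at the promoter of Rela, which encodes an NF-κB subunit, and 34615 bp away on the other side, a 450 bp peak at position 6043 at the promoter of Ap5b1. The list holds only peaks past the authors' threshold, so a weaker signal at Kat5 would not be listed. The nearest peaks left out by the 5 kb limit at other members were 6622 bp beyond Kat6b (150 bp, position 14964) and 8317 and 9613 bp from Kat8, at the promoters of Bckdk and Prss36.

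**Figure D1:**
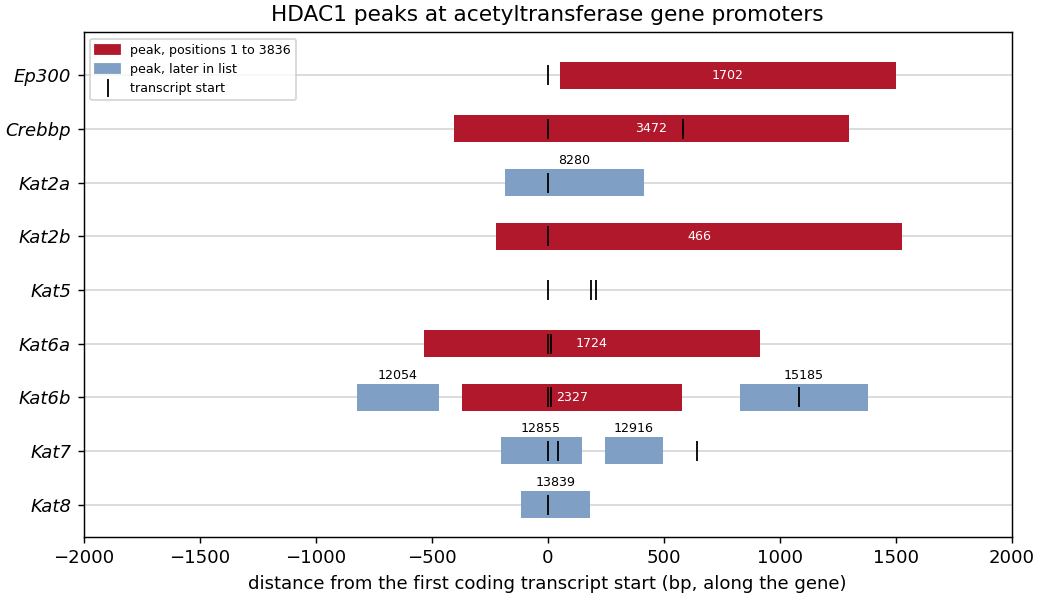
HDAC1 peaks around the first coding start of each gene, in bp along the direction of transcription, with the list position printed at each peak and black ticks for coding transcript starts. The 5 peaks in the first 3836 positions (red) are at Ep300, Crebbp, Kat2b, Kat6a and Kat6b and are 950 to 1750 bp long, and Kat5 has starts and no peak.

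Counted from the first GENCODE coding start, the peaks reached further into the genes than upstream. In 7 of the 8 genes the centre of the first-placed promoter peak lay past the first coding start, and the median offset was 152.5 bp. This was also the rule elsewhere, since 79.5% of the 9630 coding genes with a promoter peak had the centre past the start, with a median offset of 223.5 bp. Kat2b (653.5 bp) and Ep300 (777.5 bp) had the largest offsets of the 8, and Kat7 (-28.5 bp) was the exception in direction. These offsets depend on the annotation. The RefSeq starts of Ep300 (81586214) and Crebbp (4213404) lie further into the gene than the GENCODE starts used here. Offsets from RefSeq starts were not computed.

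List position divided the genes into 2 sets with a wide space between them. The first-placed promoter peak was in the first 3836 positions for 5 of 9 members, against 16.9% of all coding genes, and no other member had its first-placed peak before position 8280. The 16.9% counts genes without a promoter peak as well. Counting only genes with one, it was 5 of 8 members, beside 3687 of 9630 coding genes. The set placed early was the same as the set of long genes. All 5 members of 50 kb or more had positions of 466 to 3472 and longest peaks of 950 to 1750 bp. Of the 4 shorter genes, Kat2a, Kat7 and Kat8 had positions of 8280 to 13839 and longest peaks of 300 to 600 bp, and Kat5 had none. Over all coding genes the first 3836 positions held that of 26.0% of those of 50 kb or more and 14.2% of shorter ones, while a promoter peak at any position was found in 61.5% and 38.9%. The median first position was 4679 in the long and 5415 in the short coding genes, a smaller separation than among the members. This split by gene length was noticed after the positions had been seen and was not tested.

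**Figure D2:**
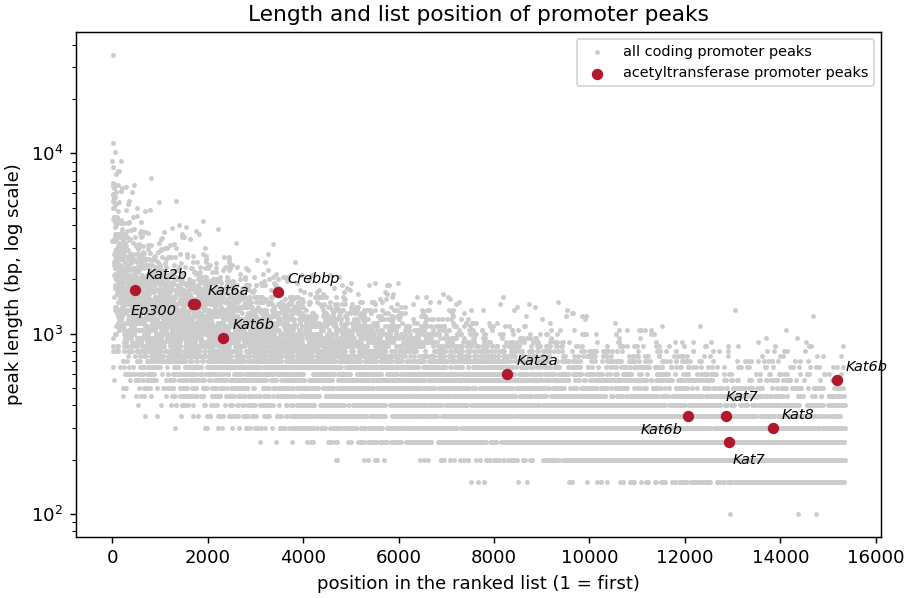
Length of each coding promoter peak in bp (log scale) against its position in the ranked list, grey for all 10757 peaks and red for the 11 at acetyltransferase promoters. The peaks of Kat2b, Ep300, Kat6a, Crebbp and the middle peak of Kat6b lie at upper left, and no red point falls between positions 3472 and 8280.

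The early promoter peaks of the 5 long genes (950 to 1750 bp) were also the longest of the members, so length and position are not separate lines of evidence. The order was not strict, as the Crebbp peak (position 3472, 1700 bp) was longer than that of Ep300 (position 1702, 1450 bp). The relation of length to position over the whole list was not computed. The 11 promoter peaks had a median length of 600 bp and a median position of 8280, beside 550 bp and 6369 over all coding promoter peaks. Taken per gene, the longest peak had a median of 1200 bp in the 8 members and 650 bp in all 9630 coding genes with a promoter peak, and the median first position was 2899.5 in the members and 5174.5 in those genes. The additional late peaks of Kat6b and Kat7 account for the difference between these ways of counting.

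The promoters were next compared in CpG content, which the choice of genes did not use. CpG-rich promoters, which often lack DNA methylation, are common at widely expressed genes. The observed/expected CpG ratio was taken over 500 bp on each side of the first coding start, and a promoter was called CpG-rich above 0.6 with more than 50% GC. Of the 10044 CpG-rich coding promoters 80.4% had an HDAC1 peak, and of the others 13.2%. By this rule 7 members were CpG-rich and 6 of the 7 had a peak, so the share in the members was close to that of other CpG-rich promoters. Kat2a (0.57) and Kat8 (0.59) fell just under the limit and both had a peak. Kat5, at 0.65, was CpG-rich without a peak. In the band from 0.4 to 0.6, which holds Kat2a and Kat8, the share with a peak was 30.3% of coding genes. From 0.6 to 0.8 it was 68.9%, and from 0.8 to 1.0 it was 91.2%.

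The ratio was 0.73 to 1.03 in the 5 genes with early peaks, highest in Crebbp and lowest in Kat6b. It was 0.57 to 0.87 in the 4 other genes, so the ranges overlap through Kat7 (0.87), which has a CpG-rich promoter and peaks late in the list. Over all coding genes with a promoter peak, the median first position was 7697 from 0.4 to 0.6, 6289 from 0.6 to 0.8 and 3942.5 from 0.8 to 1.0. The part of CpG content in the positions of the members was not tested.

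**Figure D3:**
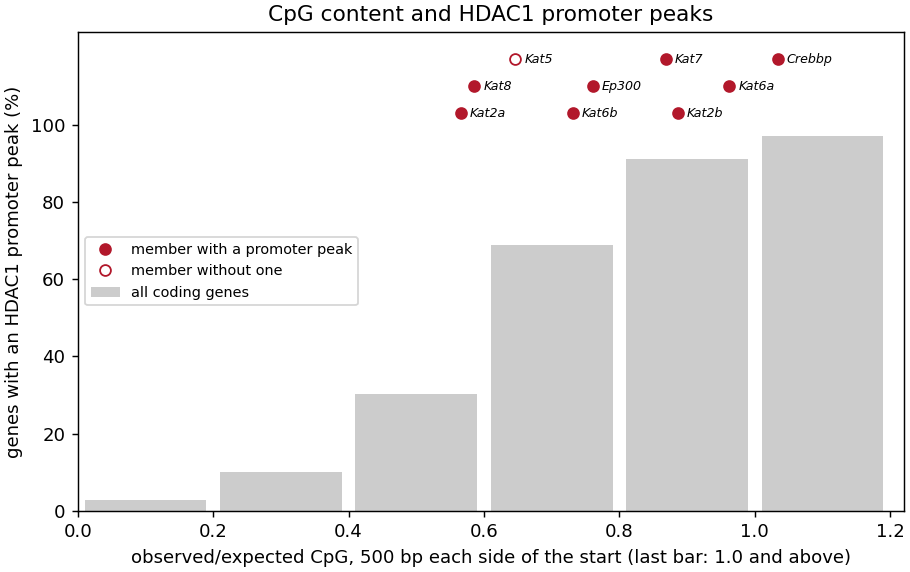
Percentage of coding genes with an HDAC1 promoter peak (grey bars) by observed/expected CpG ratio around the start, with the members' own ratios as red points above the bars, stacked in rows only to keep the names apart. The bars climb from 2.86% below 0.2 to 97.2% at 1.0 and above, and the open point, Kat5, stands at 0.65.

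In the 250 bp before the first coding start, GC boxes were the motif that varied most among the members. Kat6b had 8 matches, as the capitals above show, Kat6a had 7, Crebbp and Ep300 had 3 each, and Kat8 had 1. Kat2a, Kat2b, Kat5 and Kat7 had none. Thus 4 of the 5 genes with early peaks had at least 3, as did 11.2% of all 21851 coding promoters and 19.6% of those with an HDAC1 peak, but Kat2b, with the earliest peak, had none and held only 6 CpG and 40.8% GC in this stretch. At least 7 GC boxes were found in 0.595% of coding promoters and 1.15% of those with an HDAC1 peak. Any GC box was found at 5 of the 9 members, at 41.0% of coding promoters and at 62.0% of those with a peak. A CCAAT match was present at 5 members (Ep300, Kat2b, Kat5, Kat7 and Kat8), at 36.0% of coding promoters and at 34.4% of those with an HDAC1 peak. ETS matches lay at Ep300 and Kat8, and at 14.2% of all coding promoters and 21.6% of those with a peak. CRE cores lay at Crebbp and Kat8 (7.33% of all and 10.1% of those with a peak) and E boxes at Kat5 and Kat6a (6.60% and 8.73%). No member held the TATA box in this window (11.4% of all and 5.60% of those with a peak), the E2F motif (1.51% and 2.71%), the NRF1 motif (0.966% and 1.67%) or the YY1 motif, whose shares lay between those of NRF1 and E2F.

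Over the whole peak the base composition varied less. The 11 promoter peaks had a median GC content of 65.4% and a median CpG ratio of 0.82, the same to these digits as the medians of all coding promoter peaks. The Kat6a peak was the most GC-rich, at 75.0%, and the Kat7 peaks the least, at 57.2 and 58.3%. At Kat2b the peak as a whole had 65.1% GC, because most of it lay past the start.

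The proteins that work with these enzymes were encoded by genes with much the same share of promoter peaks. The list held 69 genes for complex subunits, further acetyltransferases and BET proteins, which bind acetylated histones. Of these, 62 (89.9%) had an HDAC1 promoter peak, against 44.1% of all coding genes. In the first 3836 positions 28 had it, against 16.9% of all coding genes. Counting only genes with a promoter peak, that was 28 of 62, beside 3687 of 9630 coding genes. Most of the list, 60 of 69 genes, had CpG-rich promoters. A promoter peak was found at 57 of these 60, beside 80.4% of all such promoters, and at 5 of the 9 others, beside 13.2%. Some of these 9 had a CpG ratio above 0.6 and missed the rule only on GC content. By complex, a promoter peak was found at 21 of 25 SAGA and ATAC genes, 14 of 15 NuA4 genes, 9 of 9 genes of the MOZ/MORF and HBO1 complexes and 8 of 9 MSL and NSL genes. The earliest positions were those of Brd2 (26), a BET protein, Taf9 (74), a SAGA and TFIID subunit, and Gtf3c4 (147), a TFIIIC subunit. The longest promoter peaks were at Brd2 (5350 bp) and at the MSL subunit genes Msl2 (2850 bp) and Msl1 (2350 bp). The genes with no peak in the window were Mcrs1, Supt20, Supt7l and Taf1. Of the NuA4 complex, which contains the Kat5 product, all 15 partner genes had a peak in the window although Kat5 itself had none. A peak at a promoter shared by neighbouring genes counts for each of them.

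The genes for the classical deacetylases were set beside the acetyltransferase genes. Of the 11 genes Hdac1 to Hdac11, 6 had a promoter peak (54.5%, against 8 of 9 acetyltransferase genes and 44.1% of all coding genes). Among them 1, Hdac4, at position 3410, had it in the first 3836 positions, against 5 of 9 and 16.9% of all coding genes. Counting only genes with a promoter peak, that was 1 of 6 against 5 of 8, beside 3687 of 9630 coding genes. The next positions after Hdac4 were those of Hdac2 (4183) and Hdac7 (4364). Hdac7 also had the longest of these peaks, 1050 bp, followed by Hdac2 (800 bp) and Hdac1 (750 bp), so that no deacetylase promoter peak was as long as those of Ep300, Crebbp, Kat2b or Kat6a. Hdac6, Hdac8 and Hdac11 had no peak in the window. The median first position was 4393.5 for the deacetylase genes with a promoter peak and 2899.5 for the acetyltransferase genes. A peak anywhere in the window was found at 8 of 11 deacetylase genes and 8 of 9 acetyltransferase genes, beside 50.4% of all coding genes. Peaks away from the gene's own promoter were found at 5 of 11 against 1 of 9, beside 17.5% of all coding genes. Hdac9, named after its values were seen, had 5 such peaks and none at its promoter. Whether the peaks away from a deacetylase promoter lay at the promoter of a neighbouring gene was not examined, and gene length was not taken into account. The lists also differed in CpG content, as 5 of 11 deacetylase promoters and 7 of 9 acetyltransferase promoters were CpG-rich. Within CpG-rich promoters 4 of 5 deacetylase genes and 6 of 7 acetyltransferase genes had a promoter peak, beside the 80.4% of all such promoters, and within the others 2 of 6 and 2 of 2 had one, beside 13.2%. No difference between the lists was tested.

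**Figure D4:**
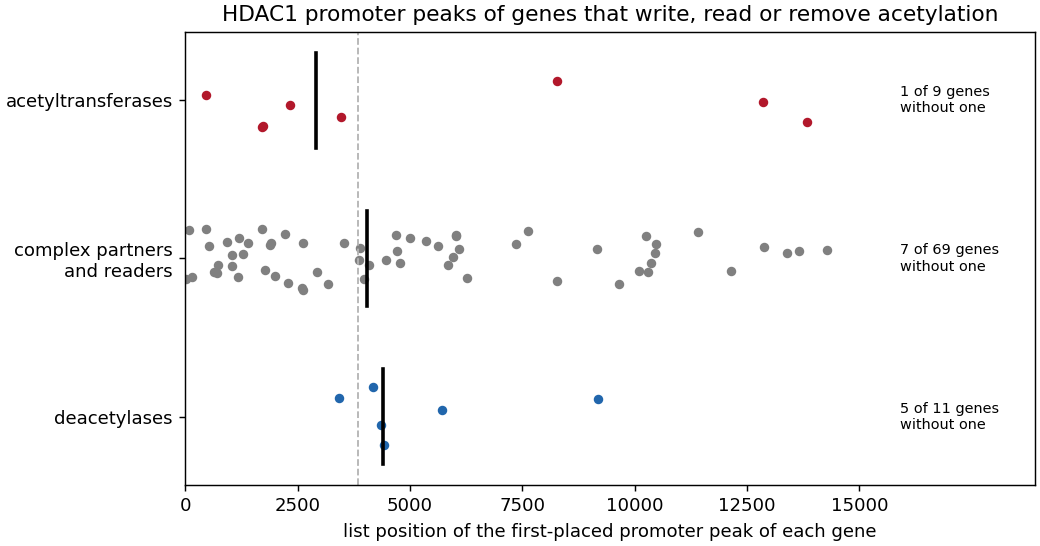
List position of the first-placed HDAC1 promoter peak of each gene, 1 point per gene, for acetyltransferases, their complex partners and readers, and deacetylases, with the median as a black bar and a dashed line at position 3836. The medians are 2899.5, 4036 and 4393.5, the points of Ep300 and Kat6a nearly coincide, and genes without a promoter peak are counted at the right.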

How the data were processed

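HDAC1 ChIP-seq was done on 4 ChIP and 3 input samples. Per the labels, Bowtie2 2.2.5 and mm10 were used. Per the study's methods, the authors called peaks with CisGenome and deposited 1 list of ranked coordinates. The deposited list holds no counts, so depth per peak is unknown from it and no replicate could be compared. A legend in the study's supplementary material names a fold change and a false discovery rate per peak, and neither was analysed here. Weaker binding can fall under the calling threshold. How near a short or late peak lies to that threshold cannot be read from the list, which gives no signal value.

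Coordinates were read as 1-based with both ends included, since all lengths are then multiples of 50 bp, and an overlap of 1 bp counted. GENCODE M21 basic coding transcripts gave genes and starts, and GRCm38 the sequence. The 9 members and the gene lists were chosen with earlier results of these data known. Named genes were all members, genes whose start or promoter window a member peak overlaps and, in the partner and deacetylase lists, genes without a peak and the 3 with the earliest or longest promoter peaks. Overlap calls were tested on simulated data, where 2000 of 2000 queries were right. Python 3.11.15, numpy 2.4.6, pandas 2.3.3 and matplotlib 3.10.9 were used.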

Additional observations from a re-analysis of the deposited data

How the results depend on the processing

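The number of peaks, of genes with a peak and of genes with a promoter peak, and the median length and position of the promoter peaks, were recomputed under 13 alternatives. Of 65 values 53 stayed within 1.5 times. Kat5 had no peak under any of them. With the first 7673 peaks and with the first 3836 peaks alike, 6 peaks remained at 5 genes, all 5 with a promoter peak, and the promoter peaks had a median length of 1450 bp and a median position of 1724, as late peaks are left out by construction. With peaks no more than 1000 bp apart merged, the median length was 1450 bp and the median position 2899.5, as the late peaks of Kat6b and Kat7 join others. With a flank of 10 kb there were 15 peaks, and without a flank 11. RefSeq starts, an alternative chosen after seeing the data, gave the same counts. No paired analysis was possible because the list is common to all samples and carries no replicate number, and for the same reason no replicate could be left out.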
